A study of Mus musculus with 2 samples.

Results

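RGS proteins (regulators of G-protein signalling) switch off heterotrimeric G proteins, and this account follows 10 mouse RGS genes on 2 arrays of high-fat-fed mice. The genes were Rgs2, Rgs3, Rgs4, Rgs5, Rgs7, Rgs9, Rgs10, Rgs11, Rgs16 and Rgs17. They were found as all gene probes (probes that are not controls) carrying one of these names in the array files, which gave 18 of the 55681 gene probes. The CSE-KO(HFD+) array held beta-cell RNA of mice lacking CSE (cystathionine gamma-lyase, a hydrogen sulfide-producing enzyme encoded by Cth), on the C57BL/6J background, 6 months old and fed a high-fat diet. The CSE-WT(HFD+) array held RNA from wild-type beta cells of the same strain, age and diet, and is named as the control. Each genotype had 1 array, both samples shared the high-fat diet, and a group on another diet was not analysed here. How the knockout was made, how many animals gave each sample and whether cells were sorted are not given in the sources used here. The family was chosen by name with the intensities of these 2 arrays already known, so its values are a description and carry no test.

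When a receptor activates a G protein, its alpha subunit binds GTP and signals until the GTP is hydrolysed. The RGS domain binds the active alpha subunit and speeds that hydrolysis, so an RGS protein shortens the signal and is often induced by the pathway it restrains. In pancreatic islets, receptors for acetylcholine, adrenaline, somatostatin and incretins act through G proteins to raise or lower insulin release. The members fall into the R4 subfamily (Rgs2, Rgs3, Rgs4, Rgs5 and Rgs16, mostly small proteins), the R7 subfamily (Rgs7, Rgs9 and Rgs11, which need the beta subunit Gnb5 as a partner), the R12 subfamily (Rgs10) and the RZ subfamily (Rgs17).

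In the CSE-KO array, 3 members were at least 1.5-fold higher and the other 7 lay within 1.25-fold of the CSE-WT array. Rgs2 was 1.89-fold higher, Rgs16 was 1.89-fold higher and Rgs11 was 1.502-fold higher, while 0 members were as much as 1.5-fold lower. The probes behind these values are shown first, since each gene's value rests on the stretch of transcript that its probe binds. The lines give the first 30 of the 60 bases of each probe, 5′ to 3′, in lower case throughout.
Rgs2 probe 1: atcctcggttcttggagtccgaattctacc
Rgs2 probe 2: ctatttgccaaaagaaatagtctttatgac
Rgs16: gagagaactcttttaagtataatattgtgt
Rgs11: atagggctgctctctagtctcccttcacaa

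On mouse build mm9, as the array files give it, Rgs2 probe 1 lies at chr1:145848830-145848889 and Rgs2 probe 2 at chr1:145847227-145847286, both on the minus strand. Their starts are 1603 bases apart and they share 0 bases. The Rgs16 probe lies at chr1:155592244-155592303 and the Rgs11 probe at chr17:26348198-26348257, both on the plus strand. The files tie the Rgs2, Rgs16 and Rgs11 probes to RefSeq transcripts of those genes. The place of each probe within exons or untranslated regions was not determined, because a genome of that build was not used here.

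Promoters of the pair with the largest differences are shown because both genes were higher together. They span 250 bases before to 50 bases after the annotated start, 5′ to 3′, from RefSeq on build GRCm38.p6. Capitals mark matches on either strand to TGACG (reverse complement CGTCA), the half-site recognised by CREB-family factors, to CACGTG, the E-box, or to TATAAA (reverse complement TTTATA).
Rgs2 (chr1:144004100-144004399, minus strand): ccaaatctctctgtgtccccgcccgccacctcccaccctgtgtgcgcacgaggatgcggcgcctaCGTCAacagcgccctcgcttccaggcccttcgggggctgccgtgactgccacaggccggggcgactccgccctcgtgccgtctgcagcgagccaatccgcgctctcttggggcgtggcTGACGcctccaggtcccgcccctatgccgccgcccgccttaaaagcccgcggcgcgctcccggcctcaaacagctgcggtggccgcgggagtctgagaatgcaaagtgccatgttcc
Rgs16 (chr1:153740103-153740402, plus strand): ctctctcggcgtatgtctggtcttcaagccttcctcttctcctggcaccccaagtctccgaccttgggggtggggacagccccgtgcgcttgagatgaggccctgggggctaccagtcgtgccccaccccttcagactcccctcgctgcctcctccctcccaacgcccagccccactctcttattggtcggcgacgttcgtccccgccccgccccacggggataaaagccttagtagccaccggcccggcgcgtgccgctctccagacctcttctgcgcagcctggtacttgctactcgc

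The Rgs2 window held 2 matches to TGACG, beginning 185 and 67 bases before the start, and no match overlapped another. The Rgs16 window held none of the 3 motifs. Of 32851 promoters of the same length, 20.8% held TGACG, 7.15% held CACGTG and 13.6% held TATAAA. Promoters were listed for 9 of the 10 members. Among these, TGACG was present for Rgs2 and Rgs4, CACGTG for Rgs7, and TATAAA for Rgs3, Rgs4 and Rgs9. The Rgs4 window also held 2 TGACG matches (236 and 141 bases before the start), and the values of Rgs4 are given below. Whether any of these matches bears on a difference between the arrays was not tested.

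Of the 18 probes, 17 carried the scanner software's flag for a signal well above background on each array, and these are called measured. The exception was 1 of 4 Rgs3 probes, which read 3.89 intensity units on the CSE-KO array and 3.69 on the CSE-WT array. All 10 genes therefore had a value, and this filter kept no gene through 1 array alone. A scaled level is the log2 of a probe's intensity over the 75th percentile of its array (540 units on the CSE-KO array and 519 on the CSE-WT array). A difference is the CSE-KO minus the CSE-WT scaled level, in log2 units. The gene value is that of the measured probe with the highest mean level, and the error given with it is the spot SD, the technical spread between spots of probes printed many times. That SD says nothing about animals or cell preparations.

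**Figure D1:**
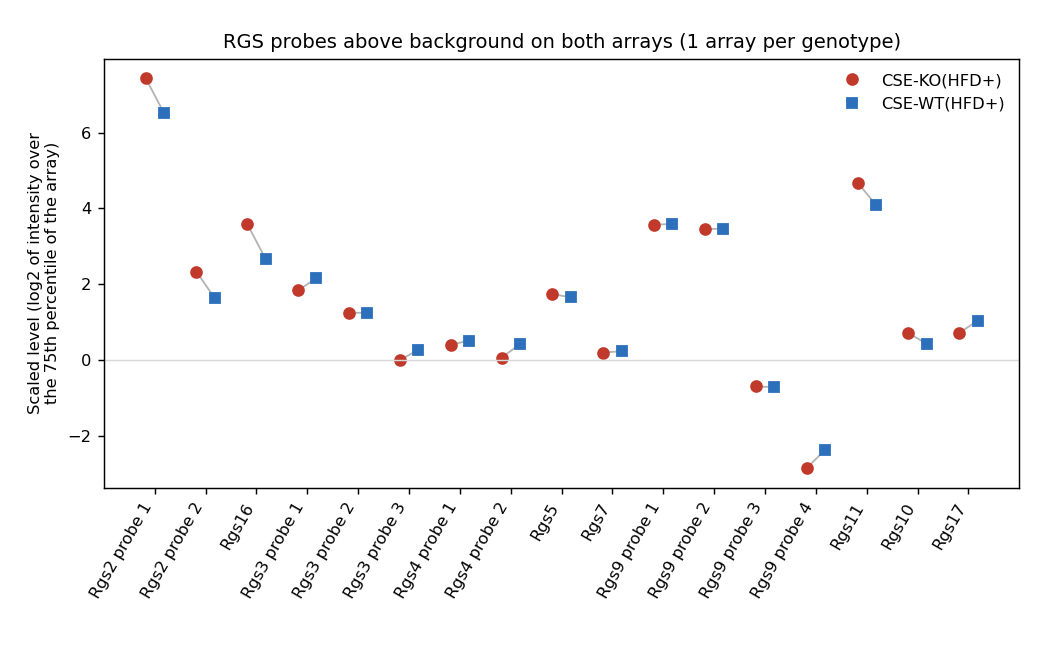
Scaled level (log2 of intensity over the 75th percentile of the array) of the 17 measured RGS probes on the CSE-KO(HFD+) array (red circles) and the CSE-WT(HFD+) array (blue squares), 1 array per genotype. Both Rgs2 probes, Rgs16 and Rgs11 stand higher on the CSE-KO array, and the other probes are nearly level or lower there, apart from small gains in Rgs5 and Rgs10.

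Some facts of the samples bear on these values. The targeted gene Cth was below that flag's limit throughout, with its 2 probes at 3.15 and 3.68 units on the CSE-KO array and at 13.5 and 12.8 units on the CSE-WT array, so it gives no firm check of the labels. The arrays shared 1 slide and 1 scan. Beta-cell markers were measured for 10 of 10 genes, with Ins1 at a scaled level of 9.81 on the CSE-KO array and 9.92 on the CSE-WT array. The zinc transporter gene Slc30a8 had the largest difference among them (-0.23). RNA of other pancreatic cells was also abundant, as the glucagon gene Gcg (9.39 in CSE-KO and 9.52 in CSE-WT) and the amylase gene Amy2a5 (8.11 in CSE-KO and 8.53 in CSE-WT) show. A level below is therefore that of a mixed RNA sample, in which fewer cells of a type and less RNA per cell cannot be told apart. Each of the 18 RGS probes was printed once, and 0 of them lay in a local patch of shifted spots.

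Rgs2 encodes an R4 protein that acts mainly on the Gq alpha subunit, which drives phospholipase C and calcium release. Its probe 1 read 93441 units on the CSE-KO array and 47545 units on the CSE-WT array, with scaled levels of 7.44 in CSE-KO and 6.52 in CSE-WT. Probe 2 read 2730 units on the CSE-KO array and 1613 units on the CSE-WT array. Both probes stood higher in CSE-KO, by 0.92 ± 0.06 and 0.70 ± 0.07 log2 units (spot SD). The second of these is a 1.63-fold difference, so the size depended on the probe by more than the spot SD while the direction did not.

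Rgs16, an R4 member that acts on both Gi and Gq alpha subunits, had 1 probe. It read 6490 units on the CSE-KO array and 3305 units on the CSE-WT array. The difference was 0.92 ± 0.06 log2 units (spot SD), which is nearly the same size as that of Rgs2. No second probe was there to check it.

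Rgs11 is the R7 member best known from retinal bipolar cells. Its single probe read 13865 units on the CSE-KO array and 8881 units on the CSE-WT array. The difference of 0.59 ± 0.06 log2 units (spot SD) put it at 1.502-fold, so close to the 1.5-fold line that the spot SD spans it.

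Among the 11069 measured genes above the median level, where all 10 members lay, 0.659% were higher in CSE-KO by 1.5-fold or more and 0.407% were lower by as much. Among all 22139 measured genes the shares were 3.09% and 2.5%, and the spot SD was 0.35 log2 units for the dimmest probes beside 0.06 for the brightest. The 3 of 10 members past this line were chosen with these values known, so their share is given beside the background and nothing is read from it. A difference of the size of that of Rgs2, in either direction, was reached by 0.235% of the genes above the median level. For Rgs16 the share was 0.244% and for Rgs11 it was 1.06%. At 2-fold, 0 members passed in either direction, beside 0.718% of all measured genes higher and 0.89% lower (0.126% and 0.0271% above the median level).

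**Figure D2:**
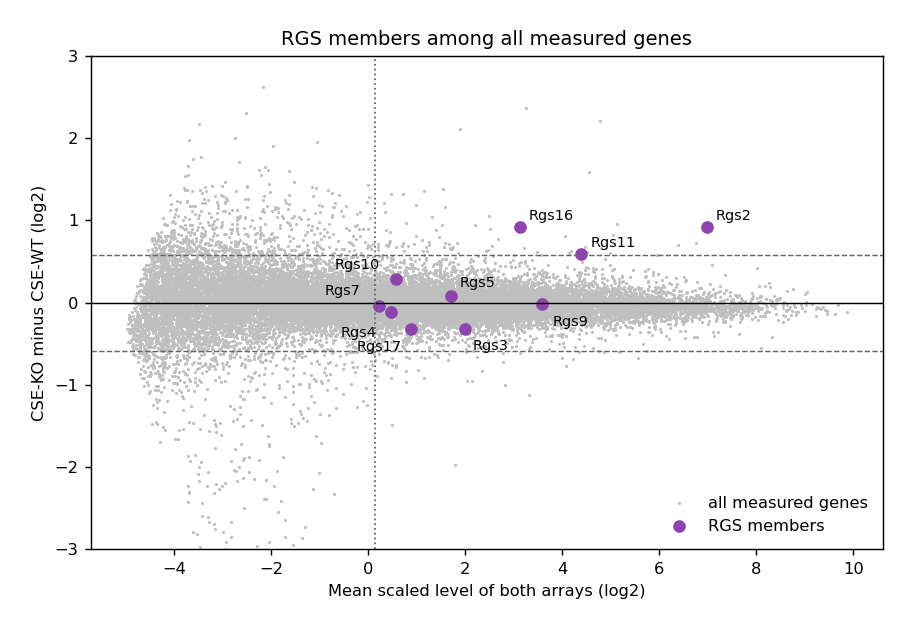
Difference between the arrays (CSE-KO minus CSE-WT, log2) against the mean scaled level of both arrays for all 22139 measured genes (grey) and the 10 RGS members (purple), with dashed lines at 1.5-fold and a dotted line at the median level. Rgs2, Rgs16 and Rgs11 lie on or above the upper dashed line on the right side of the plot, where the grey points are narrow. A total of 24 genes beyond 3 log2 units are not drawn.

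The rest of the R4 subfamily did not share the difference of Rgs2 and Rgs16. Rgs3, which acts on Gi and Gq, read 1940 units by probe 1 on the CSE-KO array and 2327 units on the CSE-WT array, a difference of -0.32 ± 0.07 log2 units (spot SD). Its probe 3, tied to another transcript (NM_019492) and placed 43216 bases away, gave -0.28 ± 0.08. Probe 2, on the same transcript as probe 1 and 785 bases from it, gave 0.01 ± 0.07. The probes of Rgs3 thus ranged from slightly lower to equal in CSE-KO, and their mean was -0.19.

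Rgs4, which in mouse beta cells limits insulin release through the M3 muscarinic receptor, was slightly lower in CSE-KO by both probes. Probe 1 read 716 units on the CSE-KO array and 746 units on the CSE-WT array, a difference of -0.11 ± 0.08. Probe 2 read 568 units on the CSE-KO array and 697 units on the CSE-WT array, a difference of -0.35 ± 0.08. The first of these is within 2 spot SD of 0 and the second is not, and their mean was -0.23.

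Rgs5 is known as a marker of pericytes, the mural cells of small vessels. It read 1810 units on the CSE-KO array and 1643 units on the CSE-WT array, a difference of 0.08 ± 0.07. Of 11 listed pericyte and smooth muscle markers 9 were measured, 7 higher in CSE-KO and 2 lower, with 0 past 1.5-fold and a median of 0.15 log2 units. Their summed scaled level on the linear scale was 36.3 on the CSE-KO array and 39.5 on the CSE-WT array. In that list Mcam differed by -0.18 and Myh11 by 0.46, and Cnn1 was above background on neither array. The part of these cells in the value of Rgs5 was not tested.

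In the R7 subfamily, Rgs7 and Rgs9 were nearly equal on the arrays. Rgs7, a neuronal regulator of Go and Gi, read 622 units on the CSE-KO array and 614 units on the CSE-WT array, a difference of -0.04 ± 0.08. Rgs9 is known from photoreceptors, where it switches off transducin, and from the striatum. Its probe 1 read 6419 units on the CSE-KO array and 6271 units on the CSE-WT array, a difference of -0.02 ± 0.06 whose sign turned in 6 of 9 alternative ways of processing. Probe 2, which shares 54 of its bases with probe 1 and is no separate check, gave 0.00 ± 0.06, and probe 3, tied to another transcript, gave 0.02 ± 0.10. Probe 4 of Rgs9, tied to NM_001165934, read 75.7 units in CSE-KO and 101 units in CSE-WT, a difference of -0.47 ± 0.24 that is within 2 spot SD of 0.

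Rgs10, the R12 member, is best known in myeloid cells and microglia. It read 888 units on the CSE-KO array and 703 units on the CSE-WT array, a difference of 0.28 ± 0.08, or 1.22-fold. With normexp background correction it was smaller, at 0.17 or 0.18 log2 units. Macrophage markers were measured for 9 of 10 listed genes (one name was an older synonym), and 8 were higher in CSE-KO, with a median of 0.40 log2 units. Among them the Fc receptor subunit gene Fcer1g was 1.54-fold higher and the integrin gene Itgam was 1.32-fold higher, its 3 probes ranging from 0.08 to 0.40 log2 units. The marker that was lower was Lyz2, at -0.41 ± 0.09. The summed scaled level of the measured markers on the linear scale was 66.9 on the CSE-KO array and 51.9 on the CSE-WT array. Itgam had the highest level among them (5.02 in CSE-KO and 4.61 in CSE-WT) and weighs most in that sum. The part of macrophages in the value of Rgs10 was not tested.

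Rgs17, the RZ member, acts on Gz and Gi. It read 892 units on the CSE-KO array and 1071 units on the CSE-WT array, a difference of -0.32 ± 0.08, or 1.25-fold lower in CSE-KO. Its difference was the lowest of the members, next to that of Rgs3 at nearly the same value.

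Of the 10 members 5 were higher and 5 lower in CSE-KO (6 and 4 where the sign of Rgs9 turned), beside 48.7% of all measured genes higher and 44.0% of those above the median level. The median difference of the members was 0.03 log2 units, beside -0.01 over all measured genes and -0.02 over those above the median level. Of the 17 measured probes, 9 were higher and 8 lower. Differences beyond 3 spot SD were found in 6 members, 4 of them higher (Rgs2, Rgs16, Rgs11 and Rgs10) and 2 lower (Rgs3 and Rgs17). The background for that rule was 7.31% of all measured genes higher and 8.5% lower, and 9.03% and 12.5% above the median level. The R4 members spanned -0.32 to 0.92 and the R7 members -0.04 to 0.59, so neither subfamily differed as a block.

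**Figure D3:**
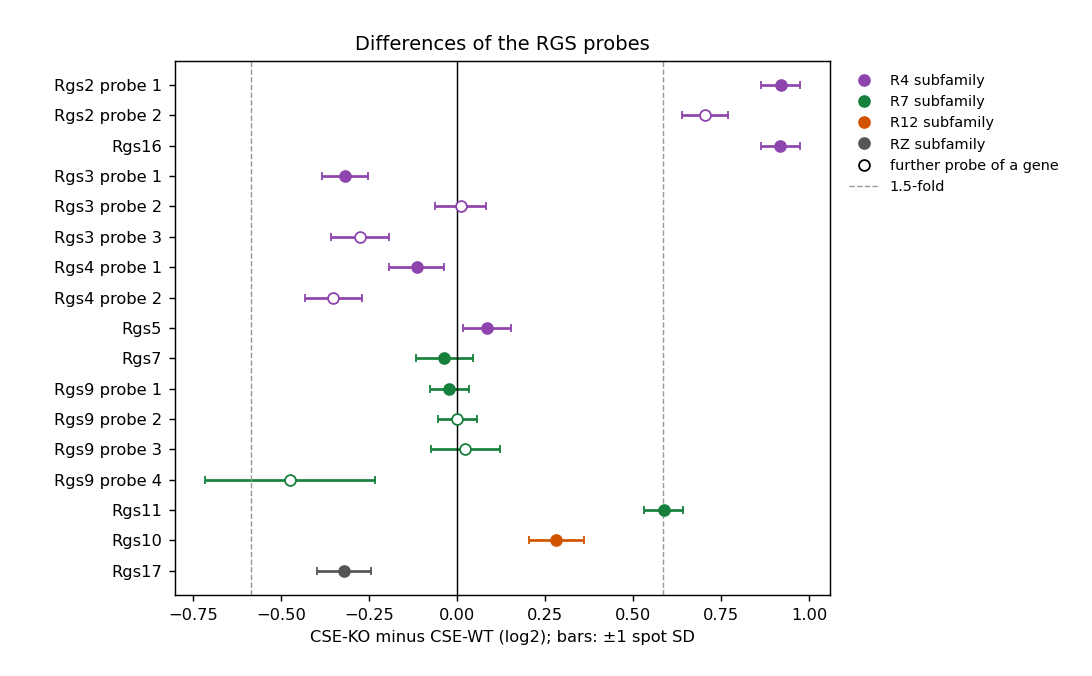
Difference of each measured RGS probe (CSE-KO minus CSE-WT, log2) with bars of ±1 spot SD, coloured by subfamily; filled points are the probes that give the gene values, open points are further probes, and dashed lines mark 1.5-fold. The 2 Rgs2 probes and Rgs16 lie right of the upper line, Rgs11 lies on it, and the other probes lie between the lines.

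RGS genes often sit together in the genome. Of the 10 members 5 lie on chromosome 1, and in the RefSeq gene order of GRCm38.p6 several neighbour other family members. Next to Rgs2 come Rgs13 and Rgs1, genes best known in lymphocytes. Rgs1 differed by 0.26 log2 units with a spot SD of 0.35, and Rgs13 was above background on the CSE-WT array only. Uchl5, on the other side of Rgs2, differed by -0.02. Next to Rgs16 comes Rgs8, which differed by -0.05. Uchl5 and Rgs8 thus did not share the differences of Rgs2 and Rgs16. Rgs4 and Rgs5 are direct neighbours of each other and differed by -0.11 and 0.08. The neighbours of Rgs11, Arhgdig and Fam234a, differed by -0.03 and -0.15. Larger differences stood beside members that hardly differed, with the kinetochore gene Nuf2 next to Rgs5 at 1.36, the fumarase gene Fh1 next to Rgs7 at -0.60 and Axin2 next to Rgs9 at -0.97. Nuf2 (scaled level -2.94 in CSE-KO and -4.30 in CSE-WT) and Axin2 (-3.94 in CSE-KO and -2.97 in CSE-WT) were dim. At such levels the spot SD is large (0.33 for Axin2), so these 2 differences are not firm.

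The remaining genes with an RGS domain were mostly dim or alike on the arrays. Of 13 listed, 8 were measured, 4 higher and 4 lower in CSE-KO, with 1 past 1.5-fold, in the lower direction. The median of 0.03 log2 units had no stable sign: it was -0.01 under cyclic loess, -0.02 under normexp with upper-quartile scaling, -0.07 with the mean over probes and -0.24 over all 13 with no filter on dim probes. Rgs20, an RZ relative of Rgs17, read 7712 units in CSE-KO and 8735 units in CSE-WT (-0.24 ± 0.06), and Rgs19, also of the RZ group, differed by -0.28 ± 0.08. All 3 measured RZ genes were thus lower, each by at most 1.25-fold, although the 3 probes of Rgs19 ranged from -0.28 to 0.05. The gene past the line was Axin2, a scaffold of the beta-catenin destruction complex and a Wnt target. It read 35.2 units in CSE-KO and 66.3 units in CSE-WT, 1.96-fold lower and within 3 spot SD of 0, and with normexp background correction its difference was -0.44 or -0.49 log2 units, short of 1.5-fold. Its relative Axin1 differed by 0.19 ± 0.07. Rgs13 read 12.4 units in CSE-KO and 34.2 units in CSE-WT, which makes it at least 2.46-fold lower in CSE-KO against the lowest detected signal of that array. Rgs18, Rgs21 and Rgs22 were above background on neither array, and Rgs6 on the CSE-KO array only.

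The partners of the R7 proteins differed little. All 5 of the listed genes were measured and had values below 0, with 0 past 1.5-fold. Their median of -0.17 log2 units is the value of the dim Rgs9bp (spot SD 0.34) and was -0.11 with normexp background correction. Rgs7bp differed by -0.02 ± 0.08, and Gpr179 by -0.44 ± 0.16, within 3 spot SD of 0. Gnb5, the obligate beta subunit of R7 proteins, differed by -0.26 ± 0.07 by its chosen probe, but its other probe gave 0.08. Gpr158, an orphan receptor that anchors R7 complexes, differed by -0.11 ± 0.06. Rgs11, whose protein needs Gnb5, stood higher, as given above.

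Genes of the G proteins that RGS proteins act on mostly stayed within 1.5-fold, some of them differing by more than 3 spot SD. Of 16 listed alpha subunit genes 14 were measured, 7 higher and 7 lower in CSE-KO, with 0 past 1.5-fold either way (median -0.01). Gnas, encoding the stimulatory subunit Gs alpha, differed by 0.01 by its chosen probe, and its 3 probes ranged from -0.18 to 1.46. Gnai2, an inhibitory subunit, differed by 0.09 ± 0.06. Gnai1 differed by -0.44 ± 0.08 and Gnaq by -0.22 ± 0.06, both beyond 3 spot SD. Gnai3 (-0.19 ± 0.06) was also beyond it, but its probe lay among shifted spots. Among beta and gamma subunits 13 of 16 were measured, 6 higher and 7 lower (median -0.03). Gnb2 differed by 0.02 and Gng5 by -0.10. The exception was Gng13, a gamma subunit known from taste cells, at 65.5 units in CSE-KO and 24.4 units in CSE-WT, 2.58-fold higher (1.37 ± 0.35 log2 units, spot SD). With normexp background correction, which adds an offset to dim signals, this fell short of 1.5-fold at 0.52 or 0.57 log2 units.

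Other regulators and effectors were close to equal as well. The 7 listed genes of other alpha-subunit regulators were measured with 4 higher and 3 lower (median 0.04), among them the chaperone and exchange factor Ric8a (0.04) and Rap1gap (-0.05). Receptor kinases and arrestins were measured for 7 of 8 names on the array, 5 higher and 2 lower (median 0.04), with Grk2 at 0.18 ± 0.06 and Grk3 at 0.11 ± 0.06 (its other probe gave 0.72). Grk1, a retinal kinase, was above background on the CSE-WT array only and at least 3.62-fold lower in CSE-KO. Effectors of Gq, the subunit that Rgs2 prefers, were measured for 12 of 12 names, 5 higher and 7 lower (median -0.04), with the protein kinase C genes Prkca at -0.04 and Prkcb at -0.27 ± 0.06. In these lists 0 measured genes passed 1.5-fold.

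Islet receptors coupled to G proteins held 2 genes past 1.5-fold, both lower. Of 17 listed, 15 were measured, 6 higher and 9 lower in CSE-KO (median -0.04). Gpr119, a lipid receptor of islets that couples to Gs, read 529 units in CSE-KO and 835 units in CSE-WT, 1.64-fold lower (-0.71 ± 0.08). The histamine receptor gene Hrh3 read 88.3 units in CSE-KO and 197 units in CSE-WT, 2.32-fold lower (-1.22 ± 0.18). The somatostatin receptor gene Sstr3 differed by -0.04 and the adrenergic receptor gene Adra2a by 0.14 ± 0.06.

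Genes induced by cyclic AMP through CREB, a list that holds Rgs2 itself, were mostly lower in CSE-KO. Of 12 measured, 3 were higher and 9 lower, with Rgs2 past 1.5-fold upward and 4 genes past it downward by their chosen probes. The median was -0.21 log2 units, and -0.32 with the mean over the probes of each gene. The share of all measured genes at least 1.5-fold lower was 2.5%. The coactivator gene Ppargc1a was 1.84-fold lower with its 2 probes at -0.88 each, and the kinase gene Sik1 was 1.62-fold lower. The nuclear receptor gene Nr4a1 read 7968 units in CSE-KO and 12331 units in CSE-WT, 1.61-fold lower. Fos was 1.54-fold lower, but its probe lay among shifted spots. With normexp background correction Fos (-0.53) and Sik1 (-0.40 or -0.42) fell short of 1.5-fold. Pde4d, encoding a phosphodiesterase that degrades cyclic AMP, had a value of -0.22 ± 0.22. Another of its 3 measured probes gave 1.02, so Rgs2 was not alone in having a probe past 1.5-fold upward.

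**Figure D4:**
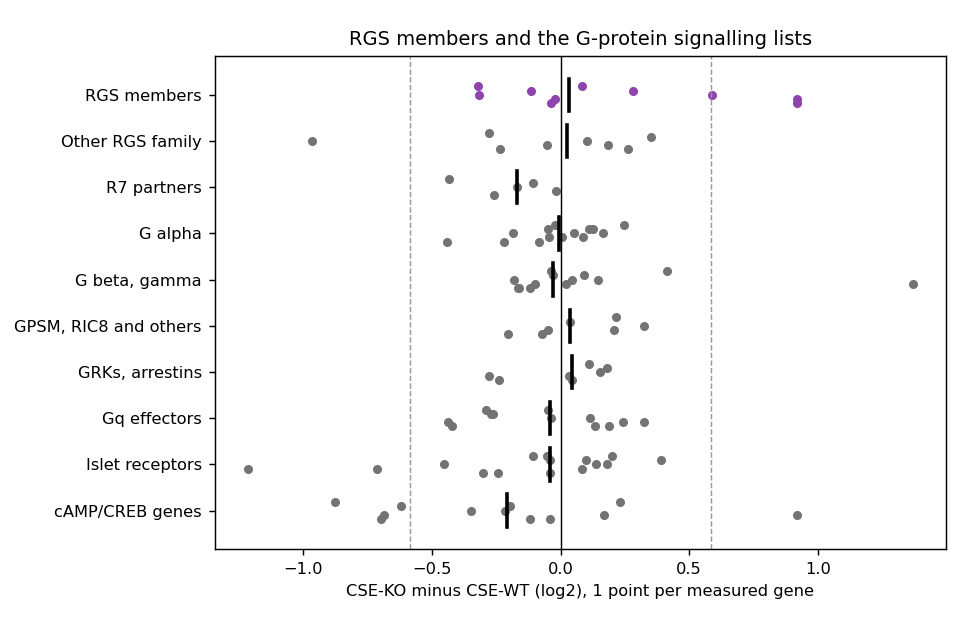
Difference of each measured gene (CSE-KO minus CSE-WT, log2) for the 10 RGS members (purple) and the 9 lists of G-protein signalling genes (grey), with black bars at the medians and dashed lines at 1.5-fold. The 3 purple points of Rgs2, Rgs16 and Rgs11 lie on or past the upper line, Gng13 lies far right among the beta and gamma subunits, and the cAMP/CREB genes lie mostly left of 0, with Rgs2 as their rightmost point.

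Markers of other cells differed between the samples alongside these values. Fibroblast and stellate markers were higher in 4 of 4 measured of 6 listed, 3 of them by at least 1.5-fold, with Col3a1 2.06-fold and Col1a2 1.35-fold higher. Their summed scaled level was low, at 3.35 on the CSE-KO array and 2.20 on the CSE-WT array, and Pdgfra was above background on neither array. Genes listed as neuronal and glial markers were higher in 5 of 8 (median 0.32), with Snap25 1.33-fold and Prph 1.80-fold higher. Their summed scaled level was 45.9 in CSE-KO and 36.9 in CSE-WT. Most of that sum is Snap25 alone (scaled level 4.90 in CSE-KO and 4.49 in CSE-WT). Which cells gave the Snap25 RNA was not determined, so the sum is no measure of neural tissue. Other endocrine markers stood lower in 7 of 8 (median -0.19), with Gcg at -0.14 and a summed scaled level of 1902 in CSE-KO and 2085 in CSE-WT. Acinar markers were lower in 5 of 8 and higher in 3 (median -0.10), with Amy2a5 at -0.42, Ctrb1 at 0.46 and Pnlip at 0.18. The dim Ptf1a, among shifted spots, was 4.71-fold lower. Ductal markers were measured for 4 of 6, 2 higher and 2 lower (median -0.02), with Krt7 at -0.26, Spp1 at 0.53, Krt19 at 0.23 and the dim Muc1 at -0.68, the last 2 within 2 spot SD of 0. Endothelial markers were higher in 5 of 7 (median 0.09), with Kdr at -0.02 and Emcn at 0.22. Lymphocyte markers were measured for 3 of 7 names on the array (median 0.01), with Cd3e at 0.01 and Cd79a at -0.04. The part of these cells in the differences of Rgs2, Rgs16 and Rgs11 was not tested.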

How the data were processed

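The arrays were 1-colour (Cy3) Agilent arrays. Per the file headers, spots were quantified with Agilent Feature Extraction 10.7.1.1 (9.5.1.1 per the submitters' processing notes), and the deposited intensity of a spot is its detrended processed signal. The authors also deposited a table of intensity values on a linear scale, with column medians of 37.652 (CSE-KO) and 37.651 (CSE-WT). It has the same direction as the scanner values. The sorted values of its columns differ by at most 0.0136 log2 units, so the columns share nearly 1 distribution, as quantile normalization gives. Its member differences lie close to those under the quantile setting used here (Rgs11 at 0.6084 and 0.6082). The sources used here do not name the procedure. Outlier spots were left out, spots of a probe were averaged as log2 intensity, and each array was scaled to its 75th percentile. Of the probes, 399 were printed at least 5 times, and spot SD came from those of them that were measured on both arrays. They were grouped by level into bins of 35 or 36 probes. A local patch is a spot whose neighbours in a 3 by 3 window had a median shift of over 0.5 log2 units. Each genotype had a single array, so no test was run, and size rules of 1.5-fold and 2-fold were used. Current symbols came from RefSeq (27235 probes by accession, 3581 by symbol, 565 by older symbol, 24300 kept as in the files). Named genes were the members, list genes past 1.5-fold, the 2 of highest mean level per list, and per cell type the marker of highest level and that of largest difference; other RGS genes and chromosomal neighbours were added after their values were seen, and 2 genes these rules give are not reported here. Members and lists were chosen with earlier results of these data known. The gene summary was tested on simulated data. Python 3.11.15, R 4.3.3 and limma 3.58.1 were used.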

Additional observations from a re-analysis of the deposited data

How the results depend on the processing

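Scaling to the array median, quantile, cyclic loess, 2 normexp settings, the authors' deposited table, no filter on dim probes, the mean over probes and leaving out patch probes gave 9 alternatives. Rgs2 stayed between 0.81 and 0.98 log2 units, Rgs16 between 0.92 and 0.97 and Rgs11 between 0.59 and 0.67, all 3 past 1.5-fold each time. Rgs11 lay closest to that line. Not every alternative could move these values. Rgs16 and Rgs11 have a single probe outside any patch. No filter, the mean over probes and leaving out patch probes therefore returned their main values. The deposited table nearly repeated the quantile setting (Rgs2 at 0.9689 and 0.9678), so these are hardly separate checks. Rgs9 changed sign in 6 of the 9, between -0.12 and 0.04, and the other members kept their sign in all 9. Values moved by over 1.5 times for Rgs10 (0.28, against 0.17 under normexp with quantile), Rgs3 (-0.32, against -0.19 with the mean over probes) and Rgs4 (-0.11, against -0.23 with the mean over probes and -0.07 under normexp with upper-quartile scaling), and the small value of Rgs7 ranged from -0.07 to -0.00. The list genes outside the members moved more: 1 was past 1.5-fold upward and 7 downward, against 0 and 4 under normexp with upper-quartile scaling, 0 and 4 under normexp with quantile, and 3 higher with no filter on dim probes. The genes that lost their place under both normexp settings were Gng13, Axin2, Fos and Sik1. Normexp with an offset of 50 shrinks the differences of dim probes by construction. Over all genes, 684 were higher and 553 lower past 1.5-fold, against 218 and 230 and against 234 and 217 under these 2 normexp settings, 2609 and 2546 with no filter, and 585 and 611 under cyclic loess; the median shift stayed within 0.06 log2 units of 0. No paired analysis was possible because each genotype had 1 array. The number of arrays limits the precision. The spot SD was 0.35 log2 units in the dimmest level bin (median scaled level -3.66). It was held at that value for dimmer probes, whose noise may be larger.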
